A study of Mus musculus with 4 samples.

Results

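The B lineage identity genes examined here are 33 mouse genes of B cell precursors and later B cells, some of them shared with other leukocytes. They were read in BA/F3, an established mouse cell line that grows on interleukin 3 and serves as an early B cell model. Members were found by symbol: every probe set of the array whose annotation names exactly 1 gene, and that gene a member, was taken, with no filter on its level. This gave 64 probe sets for 32 of the 33 members, out of 18193 genes with such a probe set. Cd38, a surface ectoenzyme, was not analysed here. One further probe set names a member among several symbols and was left out.

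The study measured RNA in 4 libraries of BA/F3 cells, 2 per group, to ask what the ETV6-RUNX1 (TEL-AML1) fusion does to transcript levels. By title, source name and genotype, 2 libraries came from cells with an inducible human ETV6-RUNX1 gene and 2 from control cells without it, which the series' design text calls empty vector lines. All 4 received 32.5 pM mifepristone, the inducing agent, for 16 h, so the control cells carry the inducer's effect too. The description field gives the 2 replicate 1 libraries the opposite condition to their titles, and the 2 replicate 2 libraries the same one. Libraries are therefore named by title, and each comparison is given by title, by description field, and for the replicate 2 pair, on which all labels name the same condition. Whether each line is a clone or a pool, and whether replicates are separate cultures, is not given in the labels used here, so p-values cover only the spread among these 4 arrays.

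B cells are specified by a short cascade of transcription factors. The E protein encoded by Tcf3 and the Ikaros factor encoded by Ikzf1 act early, Ebf1 opens B lineage genes, and Pax5 holds cells in the lineage. Under these factors a pro-B cell expresses the recombinase genes Rag1 and Rag2, assembles an immunoglobulin heavy chain, and displays it with the surrogate light chain (Vpreb1 and Igll1) and the signalling chains Cd79a and Cd79b as the pre-B cell receptor. ETV6-RUNX1 is the fusion transcription factor of a common childhood leukemia of B cell precursors, and it keeps the DNA-binding domain of RUNX1, which is why B lineage genes are of interest here.

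Values are log2 levels made by the authors with GCRMA, which sets many dim probe sets to the same lowest value, 2.23, in every library. A probe set was called above background at a level of 4 or more, and at the floor when all 4 libraries lay within 0.5 of that lowest value. The level of a probe set depends on its own probes, so differences in level were taken between libraries and not between genes. The level of 4 was applied to all genes alike, and a gene below it may have insensitive probes. Means and sums over a gene list were likewise compared between libraries. Pearson correlations of the libraries over the 17720 tested probe sets ran from 0.931 to 0.972, and the closest pair was the library titled control replicate 1 with the library titled ETV6-RUNX1 replicate 2. The 3' minus 5' difference of the array's control probe sets, a measure of RNA integrity, lay between -0.37 and -0.30 for Gapdh and between 0.63 and 0.70 for beta-actin over the 4 libraries.

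Most B lineage genes gave no signal in any library. Among the defining genes of a pro-B cell, Ebf1, Pax5, Rag1, Rag2 and Vpreb1 lay at the floor in all 4, Igll1 stayed below 4 in all 4, Cd79a passed 4 in 1 library, and Cd79b was above background in all 4. Of the 32 genes, 8 were above background in all 4 libraries: the transcription factors Tcf3 and Ikzf1, the receptor chain Cd79b, the scaffold Bank1, and the surface proteins Ptprc, Cd37, Cd53 and Cd72. At 20 genes every probe set lay at the floor in all 4 libraries. The remaining 4, Cd79a, Cd74, Blnk and Igll1, had a probe set above the floor but below the level of 4 on average. Genes with a probe set of mean at least 4 over the 4 libraries made up 25.0% of the members and 48.9% of all named genes on the array. Of the 64 member probe sets, 71.9% lay at the floor in all 4 libraries, against 53.2% of the array's probe sets.

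**Figure D1:**
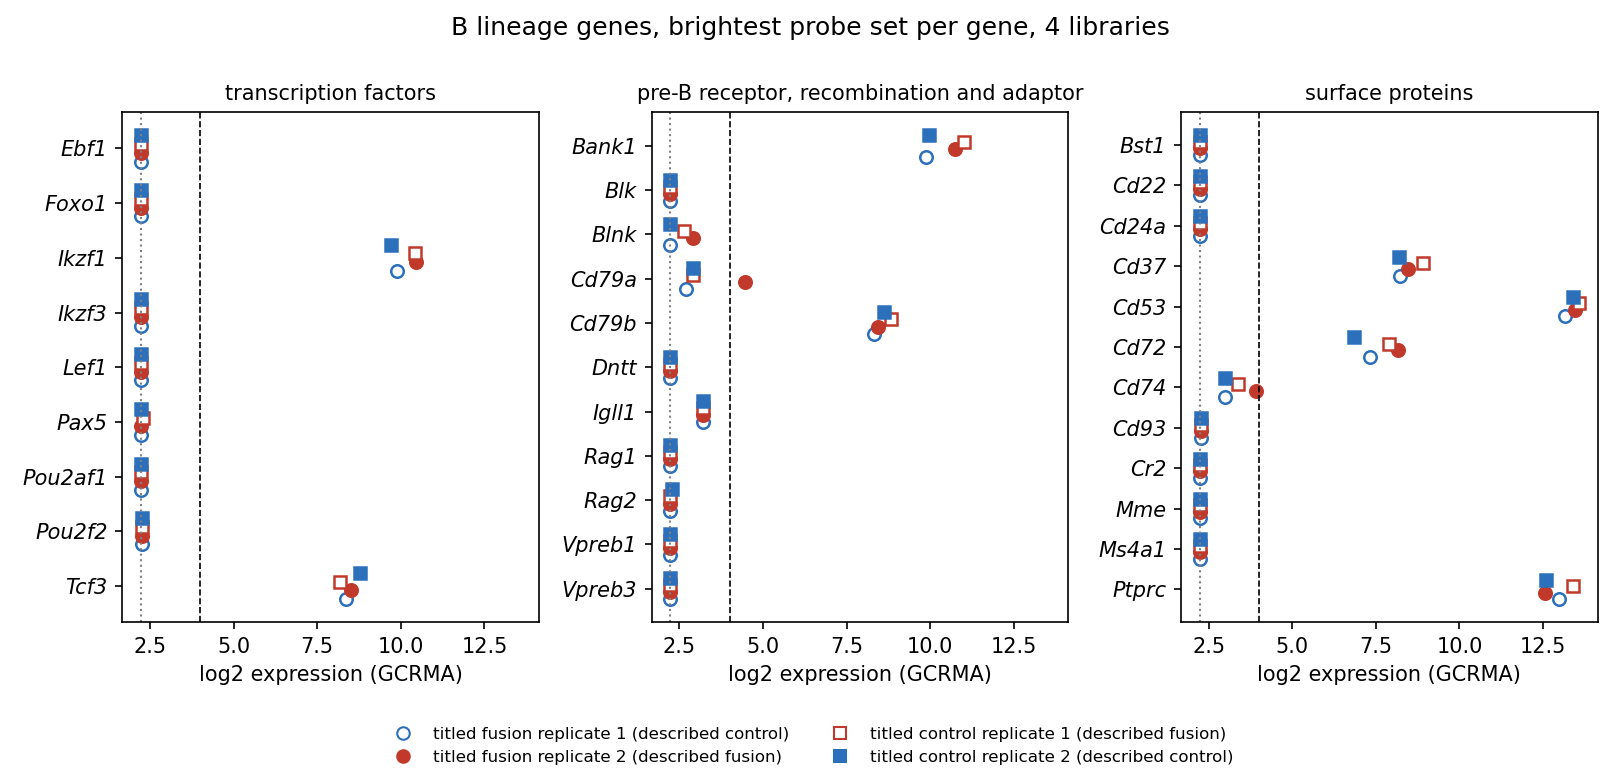
Log2 level (x axis) of the brightest probe set of each of the 32 B lineage genes in the 4 libraries, in 3 panels by role. Circles are libraries titled fusion and squares libraries titled control, open symbols are replicate 1 and filled symbols replicate 2, and red marks libraries described as fusion and blue those described as control. The dotted line is the lowest value, 2.23, and the dashed line the level of 4. Ebf1, Pax5, Rag1 and most other genes sit on the dotted line in all 4 libraries, and 8 genes lie right of the dashed line in all 4.

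Promoter windows are printed for 6 genes, some of them members above background and some members that were not. Bank1, Cd72 and Ikzf1 were above background and had the largest differences by description field among the 8 tested members, while Cd79a, Igll1 and Vpreb1 encode pre-B receptor chains, are textbook targets of EBF1 and E2A, and were not above background. Each sequence is the 250 bases before the RefSeq start of the first listed transcript in GRCm38.p6, written 5' to 3' on the gene's strand. Capitals mark matches, on either strand, to a RUNX core (TGTGGT or TGCGGT), an EBF half-site pair (CCCNNGGG), a PU.1 core (GAGGAA), an E-box (CAGGTG or CAGCTG) or the octamer (ATGCAAAT).
Bank1 chr3:136326067-136326316 (- strand): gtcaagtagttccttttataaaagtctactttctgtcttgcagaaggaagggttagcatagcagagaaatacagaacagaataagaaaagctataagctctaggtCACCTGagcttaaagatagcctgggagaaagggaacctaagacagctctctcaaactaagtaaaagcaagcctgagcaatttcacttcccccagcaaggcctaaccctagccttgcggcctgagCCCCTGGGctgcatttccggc
Cd72 chr4:43454627-43454876 (- strand): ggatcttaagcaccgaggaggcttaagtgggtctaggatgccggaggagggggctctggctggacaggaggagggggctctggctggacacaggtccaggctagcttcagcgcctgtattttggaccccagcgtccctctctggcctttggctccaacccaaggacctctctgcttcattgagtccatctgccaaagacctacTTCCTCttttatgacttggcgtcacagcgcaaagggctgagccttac
Ikzf1 chr11:11685675-11685924 (+ strand): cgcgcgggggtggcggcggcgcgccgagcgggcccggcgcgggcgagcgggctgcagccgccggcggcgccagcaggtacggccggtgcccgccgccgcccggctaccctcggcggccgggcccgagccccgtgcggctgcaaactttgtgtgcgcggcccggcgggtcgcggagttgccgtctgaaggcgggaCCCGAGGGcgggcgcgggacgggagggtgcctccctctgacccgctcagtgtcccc
Cd79a chr7:24897247-24897496 (+ strand): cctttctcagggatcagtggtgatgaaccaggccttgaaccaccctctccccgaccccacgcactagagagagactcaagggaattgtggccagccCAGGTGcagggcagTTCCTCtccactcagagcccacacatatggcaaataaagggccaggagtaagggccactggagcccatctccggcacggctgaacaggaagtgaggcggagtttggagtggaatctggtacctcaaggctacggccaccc
Igll1 chr16:16863986-16864235 (- strand): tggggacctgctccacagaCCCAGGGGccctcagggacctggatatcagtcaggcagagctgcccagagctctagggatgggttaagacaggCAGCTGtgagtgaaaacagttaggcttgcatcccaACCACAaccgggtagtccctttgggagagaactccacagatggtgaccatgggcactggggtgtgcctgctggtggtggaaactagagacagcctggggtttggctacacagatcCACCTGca
Vpreb1 chr16:16869256-16869505 (- strand): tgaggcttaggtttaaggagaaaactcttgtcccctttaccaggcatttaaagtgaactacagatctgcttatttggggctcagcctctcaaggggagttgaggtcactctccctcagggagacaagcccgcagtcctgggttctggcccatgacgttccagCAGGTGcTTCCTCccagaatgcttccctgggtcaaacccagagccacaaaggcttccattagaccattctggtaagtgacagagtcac
Of these 6 windows, only that of Igll1 held a match to the RUNX core letters, on the reverse strand from position -123 to -118 before the start. Bank1, Ikzf1 and Igll1 held an EBF match, and Cd72, Cd79a and Vpreb1 held a PU.1 core. Bank1, Cd79a, Igll1 and Vpreb1 held an E-box, Igll1 at 2 places. None of the 6 held an octamer. The search took exact letters only, so variant sites are left unmarked. Absence of a match, as for EBF and RUNX in Cd79a, therefore does not show that a window lacks such a site.

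The same search covered the 24 members that had both a probe set and a promoter window, using the first window of each gene. A RUNX core was present in 1 of 7 genes above background and in 5 of 17 genes not above background, against 18.6% of all 32851 windows of this length. The EBF motif was present in 3 of 7 and 3 of 17, against 11.8% of all windows. For the PU.1 core the counts were 4 of 7 and 4 of 17, against 23.3%. The E-box was present in 2 of 7 and 7 of 17, against 27.7%, and the octamer in 0 of 7 and 2 of 17, against 1.6%. A match describes the letters of the window, and binding was not measured in these data. The members Bst1, Cd24a, Cd79b, Cd93, Blk, Ikzf3, Ms4a1 and Cd74 had no window.

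Among the 9 transcription factors, 2 were above background and 7 lay at the floor. Ebf1, the factor that specifies the lineage, read between 2.23 and 2.24 at all 5 of its probe sets in all 4 libraries. Pax5, the commitment factor, read between 2.23 and 2.29 at 2 probe sets, the highest value being in the library titled control replicate 1. These are floor readings in fusion and control libraries alike. Foxo1, which drives recombinase genes in pro-B cells, read 2.23 at 4 probe sets, as did Ikzf3, which encodes Aiolos, at 3 probe sets. Pou2f2 and its coactivator Pou2af1, which act on octamer sites of immunoglobulin genes, reached at most 2.26 and 2.23, and Lef1, an HMG box factor of early B and T cells, 2.23.

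Ikzf1, which encodes the zinc finger protein Ikaros, read 9.87 and 10.45 in the libraries titled ETV6-RUNX1 replicates 1 and 2, and 10.43 and 9.70 in the libraries titled control replicates 1 and 2. The titled groups overlapped, and the libraries described as fusion-expressing were both above those described as control. The RNA came from whole cultures, so fewer cells with a transcript and less of it per cell cannot be told apart. By title the difference, fusion minus control, was 0.09 on the log2 scale (SE 0.40, 95% interval -1.05 to 1.23). By description field it was 0.66 (SE 0.14, 95% interval 0.26 to 1.06), a 1.58-fold difference of means that did not pass the threshold (limma adjusted p = 0.17). The second probe set of Ikzf1 read 3.24 in all 4 libraries and carried no information on the gene.

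Tcf3, which encodes the E proteins E12 and E47, was measured by 3 probe sets. The brightest read 8.35 and 8.52 in the libraries titled ETV6-RUNX1 replicates 1 and 2, and 8.19 and 8.77 in the libraries titled control replicates 1 and 2. Its groups overlapped under either label, with differences of -0.04 (SE 0.32) by title and -0.21 (SE 0.25) by description field. The next probe set read 7.04 in both libraries titled ETV6-RUNX1, 6.70 in control replicate 1 and 7.79 in control replicate 2. By description field it differed by -0.55 (SE 0.34, limma adjusted p = 0.46), with both described-fusion libraries at or below the described-control ones. The dimmest, with a mean of 4.08, differed by -0.37 (SE 0.32) by title and -0.28 (SE 0.32) by description field. At all 3 probe sets the mean difference was below 0 in both groupings, and none passed.

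Of the 11 genes of the pre-B receptor, recombination and its adaptors, 2 were above background. Rag1 read 2.23 and Rag2 between 2.23 and 2.29, and Dntt, the template-independent polymerase that adds bases at recombining joints, read 2.23 at 3 probe sets. Vpreb1, the surrogate light chain's variable-like part, and Vpreb3, a related protein of the pre-B receptor's assembly, read 2.23 in every library. Igll1, the constant-like part, read 2.23 at 1 probe set and 3.22 at the other, with no difference between libraries at either. Blk, a Src family kinase of B cells, lay at 2.23. No probe set of the surrogate light chain or the recombinase reached the level of 4 in any library.

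The 2 signalling chains of the receptor differed in detection. Cd79b read 8.31 and 8.44 in the libraries titled ETV6-RUNX1 replicates 1 and 2, and 8.81 and 8.62 in the libraries titled control replicates 1 and 2. Both titled fusion libraries lay below both controls, by 0.34 on average (difference -0.34, SE 0.25, 95% interval -1.06 to 0.38, limma adjusted p = 1). By description field the groups overlapped, with a difference of 0.16 (SE 0.23). Cd79a, which encodes the partner chain, read 2.69 and 4.47 in the libraries titled ETV6-RUNX1 replicates 1 and 2, and 2.89 in each control library. It passed the level of 4 in 1 library, its mean of 3.24 kept it out of the tests, and values this near the floor give no measured fold.

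Bank1, a scaffold protein that links the B cell receptor to calcium release, read 9.87 and 10.75 in the libraries titled ETV6-RUNX1 replicates 1 and 2, and 11.00 and 9.97 in the libraries titled control replicates 1 and 2. The high pair was the one described as fusion-expressing and the low pair the one described as control, with no overlap. By title the difference was -0.18 (SE 0.53, 95% interval -1.70 to 1.35), because it ran at -1.13 in replicate 1 and 0.78 in replicate 2. By description field the means were 10.88 ± 0.18 (SD, n = 2) and 9.92 ± 0.07, a difference of 0.95 (SE 0.16, 95% interval 0.51 to 1.40, limma adjusted p = 0.14). Blnk, the adaptor between the kinase Syk and phospholipase C, read 2.23 and 2.92 in the libraries titled ETV6-RUNX1 replicates 1 and 2, and 2.62 and 2.23 in the libraries titled control replicates 1 and 2. Those values lie at the edge of the floor.

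Among the surface proteins 4 of 12 genes were above background. Mme, Bst1, Cd24a and Cd93, surface markers of B cell precursors and other early cells, read between 2.23 and 2.27 at all their probe sets. Cd22, an inhibitory lectin, Ms4a1, a membrane protein, and Cr2, a complement receptor, which mark later B cells, read between 2.23 and 2.24. Cd74, the invariant chain of class II presentation, was low, at 3.39 and 3.92 in the pair described as fusion-expressing and 3.0 in each of the others, and it did not reach the tests.

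Cd72, an inhibitory co-receptor of B cells, read 7.32 and 8.17 in the libraries titled ETV6-RUNX1 replicates 1 and 2, and 7.88 and 6.83 in the libraries titled control replicates 1 and 2. The libraries described as fusion-expressing were both above those described as control. The difference by title was 0.38 (SE 0.55, 95% interval -1.19 to 1.96), and by description field 0.95 (SE 0.26, 95% interval 0.21 to 1.70, limma adjusted p = 0.20). In the replicate 2 pair it was 1.34, or 2.53-fold higher in the fusion library, with 1 library on each side and no replicate check.

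The tetraspanins Cd37 and Cd53, membrane organisers of leukocytes, differed less between libraries. The brighter Cd37 probe set read 8.22 and 8.47 in the libraries titled ETV6-RUNX1 replicates 1 and 2, and 8.92 and 8.19 in the libraries titled control replicates 1 and 2. Its difference was -0.21 (SE 0.37) by title and 0.49 (SE 0.23, limma adjusted p = 0.34) by description field. The dimmer Cd37 probe set went the other way in each grouping, at 0.47 (SE 0.25) by title and -0.12 (SE 0.30) by description field, so Cd37 has no settled direction here. For Cd53 the readings were 13.16 and 13.46 in the libraries titled ETV6-RUNX1 replicates 1 and 2, and 13.56 and 13.38 in the libraries titled control replicates 1 and 2. It differed by -0.16 (SE 0.16, 95% interval -0.63 to 0.31) by title and 0.25 (SE 0.11, 95% interval -0.07 to 0.56) by description field, and its dimmer probe set by -0.11 and 0.26.

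Ptprc, the leukocyte tyrosine phosphatase whose B cell isoform is B220, separated the libraries by neither label. Its brighter probe set read 12.99 and 12.55 in the libraries titled ETV6-RUNX1 replicates 1 and 2, and 13.40 and 12.60 in the libraries titled control replicates 1 and 2. Both replicate 1 libraries were above both replicate 2 libraries, at means of 13.20 and 12.58. The dimmer probe set showed the same order, with 7.01 and 6.55 in the replicate 1 libraries titled ETV6-RUNX1 and control and 5.66 and 5.69 in those of replicate 2. Differences between fusion and control were -0.23 (SE 0.35) by title and 0.18 (SE 0.35) by description field at the brighter probe set, and 0.21 (SE 0.63) and -0.24 (SE 0.60) at the dimmer.

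**Figure D2:**
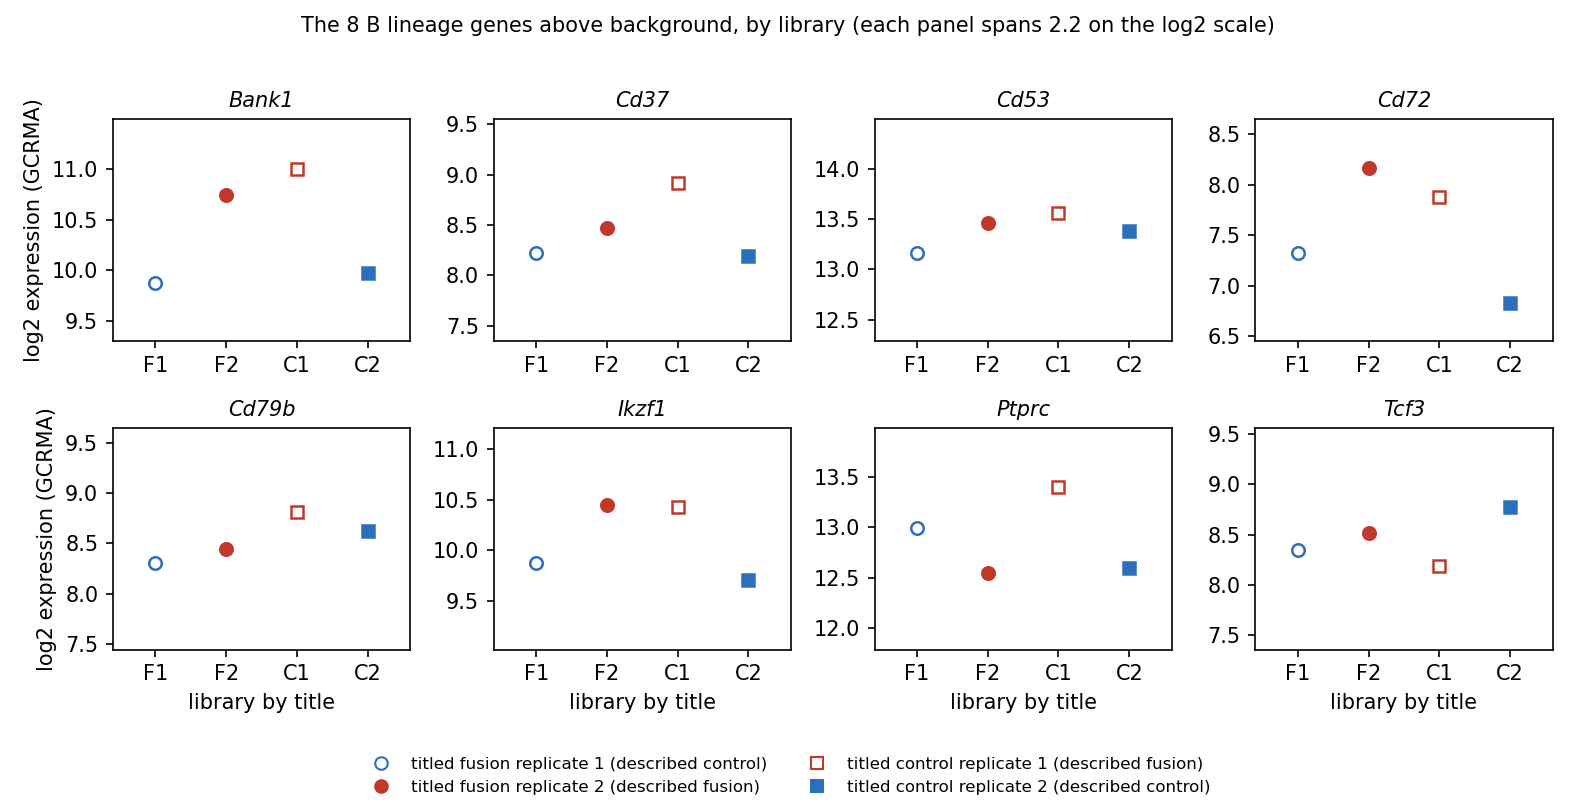
Log2 level (y axis) of the 8 B lineage genes above background in each library (x axis, F for libraries titled fusion and C for control, with the replicate number), brightest probe set per gene. Each point is 1 library, red for libraries described as fusion and blue for those described as control, and the panels share 1 span but not 1 origin. Bank1, Cd72 and Ikzf1 are high in F2 and C1 and low in F1 and C2, while Ptprc is higher in the replicate 1 libraries F1 and C1.

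Over all 13 tested member probe sets no difference passed an adjusted p of 0.05 in limma under either label. By title 0 of 13 passed, where 0% of the 17720 tested probe sets did, and 0 of 13 had an unadjusted p under 0.05. By description field 0 of 13 passed, where 0.0113% of all did, and 3 of 13, those of Bank1, Cd72 and Ikzf1, had an unadjusted p under 0.05, where 19.7% of all probe sets did. The share of members with a small p thus lay near the share of the array. By title the 2 groups lay apart, without overlap, at 2 of 13 probe sets, 1 each of Cd37 and Cd79b, against 10.7% of all. By description field they lay apart with higher values at 6 of 13, against 25.3% of all, and with lower values at 1 of 13, against 25.1%.

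As a description of the 8 genes that reached the tests, taking the brightest probe set of each, 7 had a mean difference above 0 by description field, with a median of 0.37, where 4584 of the 8892 tested genes of the array were above 0, with a median of 0.01. By title 2 of 8 were above 0, with a median of -0.17, where 4108 of the 8892 were, with a median of -0.02. In the replicate 2 pair the median was 0.18 against 0.00, and 1 of the 8, Cd72, was at least 2-fold higher, where 6.74% of all tested probe sets were. The replicate 2 libraries are part of the description grouping, so these are not separate observations. The title median became 0.16 when the array titled control replicate 1 was left out. Leaving out 1 array moved the description median between 0.23, without that titled control replicate 1, and 0.63, without that titled ETV6-RUNX1 replicate 2, and the mean of all tested probe sets of a gene gave 0.22.

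**Figure D3:**
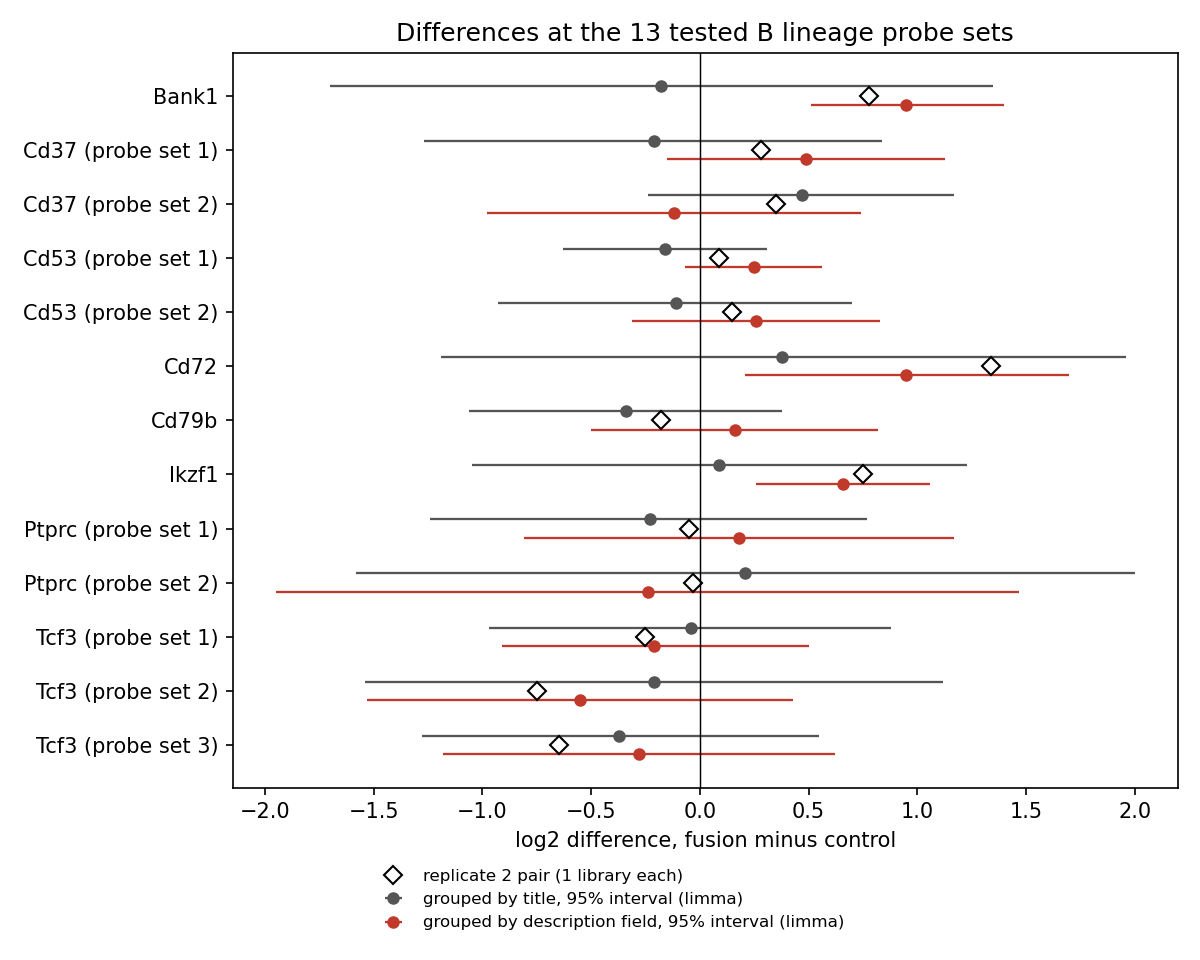
Log2 difference, fusion minus control (x axis), at the 13 tested B lineage probe sets, with probe sets of 1 gene numbered from the brightest. Grey points are the groups by title and red points the groups by description field, each with its 95% interval from limma over 2 libraries per group, and open diamonds are the replicate 2 pair. All title intervals cross 0, and by description field those of Bank1, Cd72 and Ikzf1 lie above 0 before any adjustment for multiple tests.

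Other genes of B cell signalling were detected in part. Of 30 receptors and signalling proteins with a probe set, 14 were tested, 7 higher and 7 lower by description field with a median of 0.01. In limma 0 passed in either grouping, with 2 at an unadjusted p under 0.05 by description field and 1 by title. At that p 1208 of all 8892 tested genes were higher and 868 lower by description field, and 7 were higher and 13 lower by title. Pik3cd, a catalytic subunit of phosphoinositide 3-kinase, read 12.20 to 12.38 over the 4 libraries. It differed by 0.04 (SE 0.11) by description field and 0.06 (SE 0.15) by title. By description field Ptpn6, the phosphatase recruited by inhibitory co-receptors, differed by -1.03 (SE 0.20, limma adjusted p = 0.16). Spn, a sialoglycoprotein also known as leukosialin, differed by -0.66 (SE 0.21), and Cd81, a tetraspanin, by 0.71 (SE 0.39). By title the differences were 0.06 (SE 0.59) for Ptpn6, 0 (SE 0.43) for Spn and -0.46 (SE 0.51) for Cd81. The interleukin 7 receptor gene Il7r and the cytokine receptor genes Flt3 and Kit, named here after their values were seen, read 2.23 at every probe set, and the class II genes H2-Aa, H2-Ab1 and H2-Eb1, named in the same way, also lay at 2.23.

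Of 31 lymphoid transcription factors outside the member list with a probe set, 17 were tested, 12 higher and 5 lower by description field, with a median of 0.29 against 0.01 for all genes, and 0 passed in limma. An unadjusted p under 0.05 was found at 6 of the 17, 5 higher and 1 lower, where 1208 of the 8892 tested genes were higher and 868 lower at that p. By title 10 were higher and 7 lower, with a median of 0.10, and 0 passed, with 0 at an unadjusted p under 0.05. Myb, a factor of hematopoietic progenitors, differed by 0.29 (SE 0.09) by description field and the ETS factor Fli1 by 0.26 (SE 0.21). By title Myb differed by -0.08 (SE 0.20) and Fli1 by 0.10 (SE 0.27). Id2, an inhibitor of E proteins, read 7.93 and 8.30 in the libraries described as control and 10.66 and 10.04 in those described as fusion-expressing, a difference of 2.23 (SE 0.30, limma adjusted p = 0.13). Bcl6, a repressor of germinal centre cells, read 7.39 and 6.77 in the described-fusion libraries and 2.64 and 2.55, at the floor, in the described-control ones. It entered the tests only through the libraries where it is high, so no fold is given. Bcl6 is 1 of the 12 genes higher by description field and 1 of the 5 higher at an unadjusted p under 0.05. Those counts and the median are therefore partly set by the filter.

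Cofactor, break-sensing and end-joining genes that take part in recombination were mostly above background, while Rag1 and Rag2 were not. Of 10 such genes 9 were tested, 4 higher and 5 lower by description field with a median of -0.10. In limma 0 passed in either grouping, with 2 at an unadjusted p under 0.05 by description field and 0 by title. By description field 1208 of all 8892 tested genes were higher and 868 lower at that p. Hmgb2, a DNA-bending cofactor, read 14.58 to 14.71, and Atm, the break-sensing kinase, 8.93 to 9.80. Lig4, the ligase of end joining, differed by -0.94 (SE 0.28) by description field and -0.43 (SE 0.54) by title. Polm, a polymerase of end joining, read 6.55 and 7.06 in the described-fusion libraries and 3.99 and 4.18, close to the level of 4, in the described-control ones.

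Markers of other lineages were read in the same libraries. Of 11 T lineage genes with a probe set 1 was tested, the adaptor gene Lat at 3.66 to 4.95, and of 7 plasma cell genes 1, the stress-response factor Xbp1 at 11.10 to 11.76. Of 9 erythroid and megakaryocyte genes 5 were tested, among them the transferrin receptor gene Tfrc (12.43 to 13.56) and the integrin gene Itga2b (9.08 to 10.52). By description field Klf1, an erythroid factor, differed by -2.37 (SE 0.56) and Epor, the erythropoietin receptor gene, by 0.90 (SE 0.44). By title Klf1 differed by -0.91 (SE 1.27) and Epor by -0.33 (SE 0.63). Of the 5 tested erythroid and megakaryocyte genes, 3 were higher and 2 lower by description field. In limma 0 passed in either grouping, with 1 at an unadjusted p under 0.05 by description field and 0 by title. By description field 1208 of all 8892 tested genes were higher and 868 lower at that p. Lat read 4.95 in both described-fusion libraries and 3.66, below the level of 4, in both described-control ones, and entered the tests only through the former. Xbp1 differed by -0.21 (SE 0.26) by description field and 0.29 (SE 0.27) by title. Of 18 mast cell, basophil and other myeloid markers 8 were tested. Their mean log2 level was 5.09 and 6.22 in the described-control libraries and 7.51 and 8.30 in the described-fusion ones, and their summed linear level ran from 6799 to 6903 and from 6603 to 14501. Gata2, a factor of mast cell and progenitor programmes, read 12.44 to 13.26, Ms4a2, the IgE receptor beta chain, 5.59 to 9.18, Fcer1a, its alpha chain, 2.32 to 9.91, and Cma1, a mast cell chymase, 2.23 to 11.39. Among the granule and myeloid genes of the list, chosen after their values were seen, Cd14, Elane and Ctsg lay at the lowest value of 2.23 in all 4 libraries, whereas Mpo read 2.34 to 8.0, Prtn3 4.63 to 7.20 and Lyz2 3.11 to 7.27, and Cebpa, below the filter on average, 2.45 to 5.36. By description field 6 of the 8 were higher and 2 lower, and by title 1 was higher and 7 lower. These counts and the mean level are partly set by the filter, since Fcer1a reached it only through the described-fusion libraries and Cma1, Hdc, Lyz2 and Mpo lay below 4 in at least 1 library. Of the 8, 0 passed in either grouping in limma, with 2 at an unadjusted p under 0.05 by description field, Fcer1a among them, and 0 by title. The counts over all tested genes at that p are those given above for the erythroid list. Bank1, Cd72 and Ikzf1 were higher in the same 2 libraries as these markers by mean log2 level. By summed linear level the markers were lowest, at 6603, in 1 of those libraries, that titled ETV6-RUNX1 replicate 2. The markers' part in the differences of Bank1, Cd72 and Ikzf1 was not tested.

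**Figure D4:**
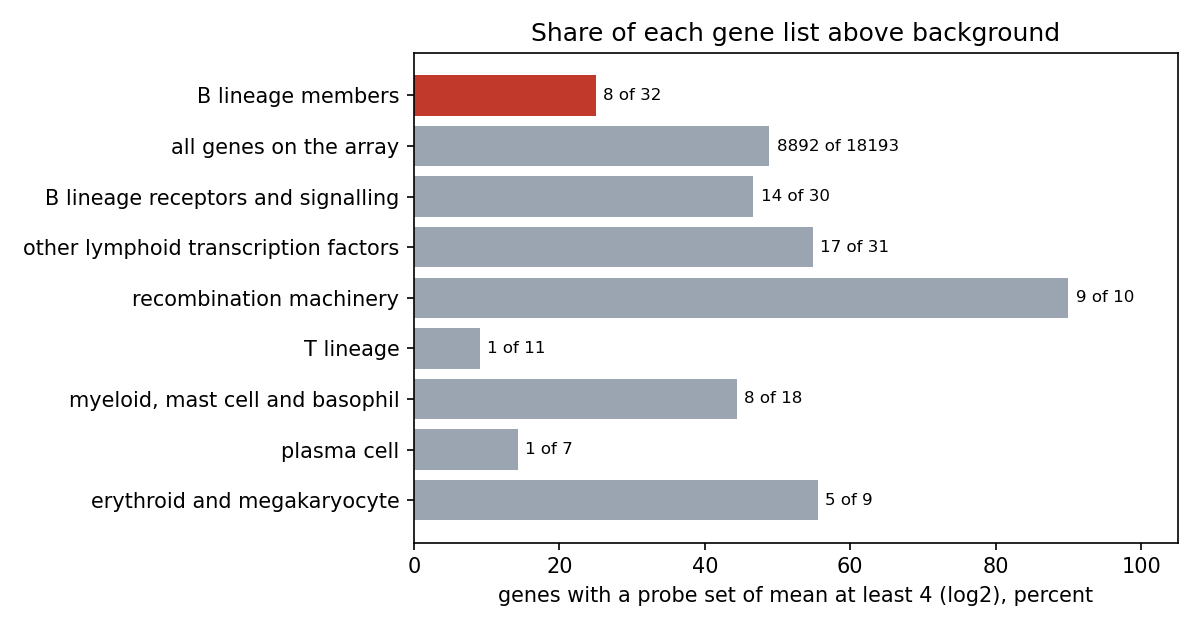
Share of genes with a probe set of mean log2 level 4 or more (x axis, percent of the genes of each list that have a probe set), for the B lineage members in red and other gene lists in grey, with the counts beside each bar. The members, at 8 of 32, lie below all genes on the array, at 8892 of 18193, and above the T lineage list at 1 of 11.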

How the data were processed

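RNA of BA/F3 cells was read on a mouse 3' expression array of 45101 probe sets in 4 libraries. The deposited table holds log2 values produced by the authors with GCRMA 2.28.0, according to the submitters' processing notes. The log2 scale was inferred from the range of the values. Their filters and test were not given in the sources used here. Differences near the lowest value are compressed. The series' design text speaks of promoter binding, but the protocols describe total RNA, and the values were treated as RNA levels.

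Gene names came from the platform annotation (34958 with 1 symbol, 932 with several, 9211 with none; 0 symbols changed through Entrez identifiers). The 64 control probe sets were left out. Probe sets with a mean of at least 4 were tested with limma 3.58.1 in R 4.3.3 (lmFit and trended eBayes), with two-sided p-values adjusted over all 17720 by Benjamini-Hochberg. Each reported fit left 2 residual degrees of freedom, and the alternatives with the replicate block or with a library left out had fewer. The brightest probe set stood for a gene. The members, the other lists and the tests were chosen with earlier results of these data known. All 33 members were to be named; of each other list, the 2 genes of highest mean and the 2 of largest difference by description field. The test was run on simulated data with planted changes of at least 4 on the log2 scale, larger than any member difference here. That run does not show how well differences of the size seen here would be found. Promoter windows come from RefSeq (GRCm38.p6). An array has no read depth; precision is limited by the 4 libraries. Alternatives varied the filter, trend, normalization, replicate block, probe set choice and libraries.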

Additional observations from a re-analysis of the deposited data

How the results depend on the processing

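By title the count of probe sets past the threshold was 0 in limma under each alternative tried, from 0 to 0 with 1 library left out, and 0 with the replicate block, with 50 at an unadjusted p under 0.05 in the reported fit and 16 to 448 under the alternatives that kept the grouping; grouping by description field gave 2. By description field the 2 became 0 without the filter, 4 with a mean of at least 5, 14 after quantile normalization, 10 after setting a common median, 14 with the mean of all probe sets of a gene, 0 with the replicate block, and 0 to 0 with 1 library left out; the causes were not tested, beyond more or fewer features tested. By description field 3494 probe sets had an unadjusted p under 0.05 in limma in the reported fit and 5579 with the replicate block. With that block the limma adjusted p was 0.069 for Bank1 and 0.078 for Ikzf1, neither past the threshold. Same-numbered libraries deviated from their group means with a correlation of -0.20 by title and 0.59 by description field. With 2 pairs and no label on what a number marks, the numbers are not taken as pairs. No B lineage probe set that stands for a gene passed under any of these settings. Directions by title were not stable: leaving out 1 library gave ranges of -0.69 to 0.34 for Bank1, -0.27 to 0.46 for Ikzf1, -0.33 to 0.25 for Tcf3, -0.14 to 0.91 for Cd72, -0.64 to 0.17 for Ptprc and -0.58 to 0.15 for Cd37, and the mean of its probe sets gave 0.13 for Cd37; Cd53 (-0.32 to -0.01) and Cd79b (-0.44 to -0.24) kept their sign. In these fits the lone library of a group is assumed to vary like the other group. By description field Bank1 ranged from 0.83 to 1.08, Ikzf1 from 0.57 to 0.74 and Cd72 from 0.71 to 1.19, while Ptprc ranged from -0.25 to 0.61 and Cd79b from -0.02 to 0.35; the mean of its probe sets gave -0.03 for Ptprc. The count of 8 genes above background was 8 at a level of 5, 9 at a level of 3 and 6 when every probe set of a gene had to pass, and the 1 gene past 2-fold in the replicate 2 pair was 1 under both alternatives. Signal at the floor limits the rest: a change of a gene that stays there could not be seen.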

Other observations

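Btk, the tyrosine kinase of B cell receptor signalling, was chosen after its values were seen. It read 6.21 and 6.73 in the replicate 1 libraries titled ETV6-RUNX1 and control, and 9.23 and 8.60 in the replicate 2 libraries titled ETV6-RUNX1 and control. Its fusion minus control difference was 0.06 by title and 0.57 (SE 1.27, limma adjusted p = 0.84) by description field, so neither label separates its high from its low libraries. The order is the opposite of that of Ptprc, whose replicate 1 libraries were the higher ones. Ighm, the immunoglobulin heavy chain gene, also chosen after its values were seen, read 5.76 to 6.04 over the 4 libraries and differed by -0.08 (SE 0.25) by title and -0.14 (SE 0.19) by description field.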
